A study of Mus musculus with 6 samples.

Results

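The genes described here are 10 members of the BCL2 family that decides whether mitochondria release their death signals. They are the BH3-only genes *Bmf*, *Bcl2l11* (BIM), *Bbc3* (PUMA), *Pmaip1* (NOXA) and *Bad*, the pro-survival genes *Bcl2*, *Bcl2l1* (BCL-xL) and *Mcl1*, and the pore-forming effectors *Bax* and *Bak1*. Members were chosen by symbol, with the measured differences of these libraries from high glucose alone already known, and *Bmf* had been seen among the largest decreases of the whole table. Each symbol matched 1 locus, so that 10 of the 24469 loci in the table are members. All 10 had a mean of at least 1 FPKM (fragments mapped per kilobase of transcript, scaled to the depth of the library) over the 6 libraries and were therefore tested.

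BCL2 family proteins meet at the outer mitochondrial membrane. BAX and BAK1 form the pores that let cytochrome c escape and start the caspase cascade, and BCL2, BCL-xL and MCL1 hold them in check. BH3-only proteins carry a short helix, the BH3 domain, that fits a groove on the pro-survival proteins and frees or activates the effectors. Growth factors act on this set through the kinases AKT and ERK, which phosphorylate BAD and BIM, and through FOXO transcription factors, which are known to act on *Bcl2l11* and *Bbc3*. Podocytes, the filtering cells of the glomerulus, are hardly replaced when lost, which is why their survival under high glucose has been studied.

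The cells were a conditionally immortalised mouse podocyte line (MPC) at passages 10 to 15, which is a cell line and not podocytes in the kidney. All groups were grown in 5.5 mM glucose at 33 °C, differentiated for 10 days at 37 °C without interferon gamma, starved of serum for 12 h and then kept in 25 mM glucose (HG) for 12 h. The HG group received no pretreatment, the rFGF1WT group received 100 ng/mL wild-type recombinant FGF1 for 1 h before the glucose, and the rFGF1ΔHBS group received 100 ng/mL of the FGF1 variant altered at its heparan sulfate-binding site. There were 2 libraries in each of the 3 groups, and nothing in the labels says whether they came from separate cultures, so p-values measure only the spread between these libraries. Both FGF1 groups were compared with the same 2 HG libraries, no library from normal glucose was analysed here, and the FGF1 protein cannot be told apart from the pretreatment step itself.

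Of 12 podocyte markers, 11 were in the table and 5 had a mean of at least 1 FPKM. *Podxl* stood at 14.8 to 17.6 FPKM, while *Wt1*, *Lmx1b* and *Ptpro*, which mark mature podocytes, were at or below 0.0731 FPKM in every library. Markers of other kidney cells were mixed, since the 5 endothelial markers were near 0 but *Lrp2* of proximal tubule was at 22.2 to 28.5 FPKM. Of 7 mesangial and smooth muscle markers, 7 were in the table, and their summed level was 61.7 and 59.7 FPKM in HG, 75.8 and 72.8 FPKM with rFGF1WT and 74.3 and 66.2 FPKM with rFGF1ΔHBS, without overlap with HG. Among them *Itga8*, a mesangial marker, was near 0 in every library. Of the 7, 4 were tested and 0 passed (limma, 4 at an unadjusted p below 0.05 with each protein, where 24.8% and 24.9% of all tested loci were). The summed podocyte markers were likewise higher with both proteins, at 169.5 and 163.4 FPKM in HG and 185.1 to 199.8 FPKM in the FGF1 libraries, and *Lrp2* was highest in HG, again with 0 passing, and their part in the results was not tested. Of the marker lists, the 1 locus that passed was *Cd68*, merged with *Eif4a1* in the table and higher with both proteins, while the leukocyte markers *Ptprc*, *Adgre1* and *Itgam* were at or below 0.0548 FPKM. The FGF response genes *Etv4*, *Etv5* and *Spry4* rose with both proteins, *Etv5* from 0.486 and 0.578 FPKM in HG to between 7.72 and 8.42 FPKM in the 4 FGF1 libraries. *Spry2* rose with rFGF1WT and did not pass with rFGF1ΔHBS. Among 7563 loci with a single transcript, 672 to 735 values per library lay in the range that was searched for a step of 1 fragment. Of these, 58.9% to 64.8% were within 2% of the step found. That step put the depth at an estimated 22300000 to 23200000 fragments per library, and the range searched limits what the estimate could be. In each group, 3.38% to 3.82% of the 10562 tested loci stood at least 4-fold apart between the 2 libraries, and this spread touches *Mcl1* below.

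BH3-only proteins are named for the BH3 helix. Its core is a leucine followed, after 3 residues, by a small residue and an aspartate. The 42 coding bases around that core are shown for *Bmf*, *Bcl2l11*, *Bad* and *Bbc3*. They come from GENCODE M21 transcripts on GRCm38, with the codons of the leucine and of the small residue and aspartate in capitals.
*Bmf* (chr2:118545097-118545138, minus strand, exon 4 of 5): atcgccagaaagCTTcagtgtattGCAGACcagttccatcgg
*Bcl2l11* (chr2:128147138-128147179, plus strand, exon 3 of 4): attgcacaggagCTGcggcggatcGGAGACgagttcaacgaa
*Bad* (chr19:6950780-6950821, plus strand, exon 3 of 4): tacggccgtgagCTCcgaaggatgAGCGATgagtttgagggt
*Bbc3* (chr7:16313761-16313802, plus strand, exon 3 of 4): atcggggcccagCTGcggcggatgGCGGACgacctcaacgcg
A match to the core, anywhere in the protein, was found in every basic coding transcript of *Bmf* (2 of 2), *Bad* (6 of 6) and *Bbc3* (1 of 1). For *Bcl2l11* it was found in 4 of 5. Whether each match is the stretch shown was not checked. A gene-level FPKM adds these transcripts, so for *Bcl2l11* it includes any RNA without the BH3 core. A match was also found in every basic coding transcript of *Bcl2* (2 of 2), *Bcl2l1* (3 of 3) and *Mcl1* (2 of 2). The same held for *Bax* (2 of 2) and *Bak1* (2 of 2), so the core does not set the BH3-only genes apart.

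In the order of their levels in HG, *Mcl1* and *Bak1* led the family, followed by *Bad* and *Bmf*, then *Bcl2l1*, *Bbc3*, *Bcl2l11*, *Bax*, *Bcl2* and *Pmaip1*. The libraries of *Mcl1* and *Bak1* overlapped, as did those of *Bad* and *Bmf*, whereas the other neighbours in this order did not overlap. In both FGF1 groups the order was *Mcl1*, *Bak1*, *Bcl2l1*, *Bad*, *Bbc3*, *Bax*, *Bcl2*, *Bcl2l11*, *Pmaip1* and *Bmf*, and only *Pmaip1* and *Bmf* overlapped between neighbours. *Bmf* thus came after *Mcl1*, *Bak1* and *Bad* in HG and last with either protein. FPKM is scaled to length, so these levels can be set beside each other.

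**Figure D1:**
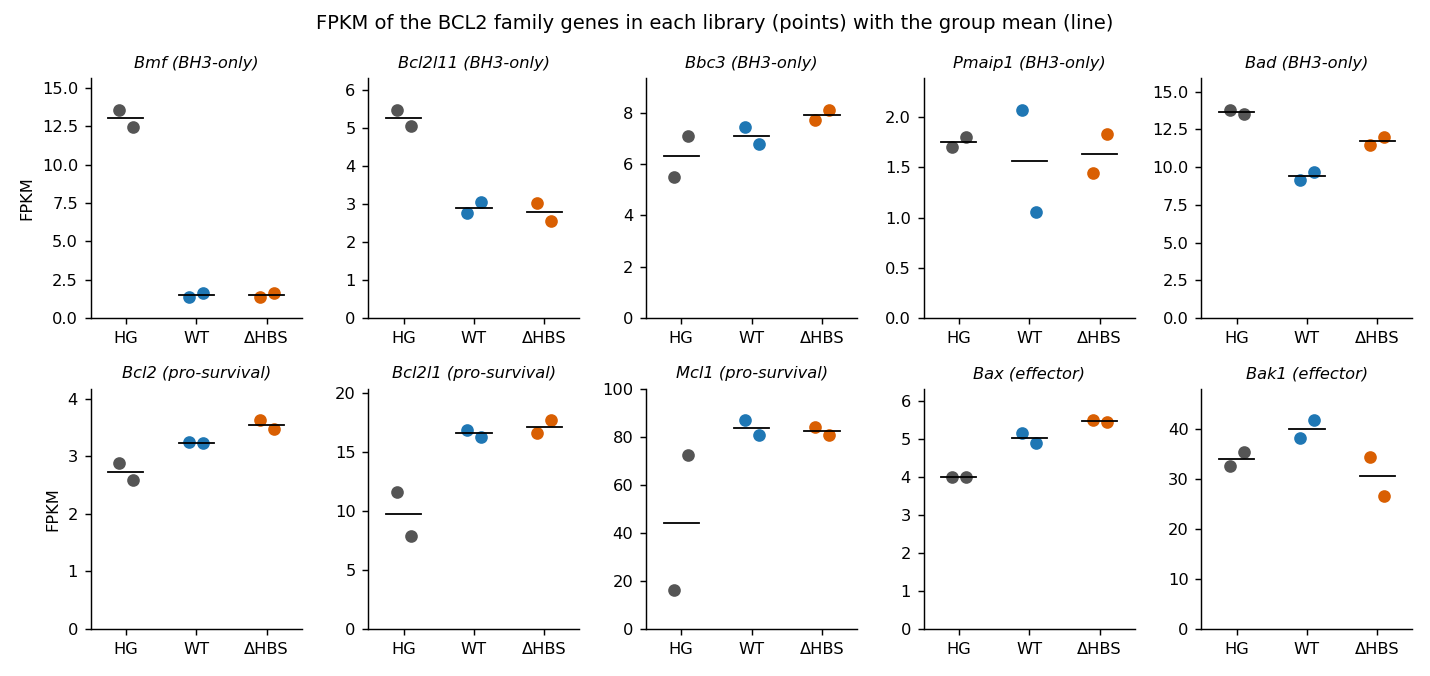
FPKM of each family gene (vertical axes start at 0) in the 2 HG, 2 rFGF1WT (WT) and 2 rFGF1ΔHBS (ΔHBS) libraries, with points for libraries and lines for group means. The 4 FGF1 libraries of *Bmf* lie between 1.37 and 1.65 FPKM and both HG libraries at 12.5 FPKM or more, while the HG libraries of *Mcl1* are 4.50-fold apart.

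All 4 FGF1 libraries lay below both HG libraries for 3 members (*Bmf*, *Bcl2l11* and *Bad*) and above them for 4 members (*Bcl2*, *Bcl2l1*, *Mcl1* and *Bax*), and the libraries overlapped for *Bbc3*, *Pmaip1* and *Bak1*. The same held below HG for 25.5% and above HG for 17.1% of all 10562 tested loci. With rFGF1WT, 3 of 10 members (*Bmf*, *Bcl2l11*, *Bad*) were lower than in HG at an adjusted p below 0.05 and 0 were higher, where 2.94% of tested loci were lower and 3.26% higher. With rFGF1ΔHBS, 2 of 10 members (*Bmf*, *Bcl2l11*) were lower and 1 (*Bax*) was higher, where 2.89% of tested loci were lower and 3.37% higher. *Bmf* was the only member that also differed by at least 2-fold, as did 1.01% of tested loci with rFGF1WT and 0.899% with rFGF1ΔHBS. Since *Bmf* was known to be low when the family was picked, nothing is read from these shares. Without any 1 of the 4 FGF1 libraries, 1 member (*Bmf*) passed in each comparison with HG, and without HG replicate 1 (*Bmf* and *Bcl2l1*) or HG replicate 2 (*Bmf* and *Mcl1*) 2 did. At an unadjusted p below 0.05 the counts were 5 of 10 with rFGF1WT, where 24.8% of tested loci were counted, and 6 of 10 with rFGF1ΔHBS, where 24.9% were. The median difference over the 10 members was 0.17 with rFGF1WT and 0.11 with rFGF1ΔHBS on the log2(FPKM + 1) scale, beside -0.04 over all tested loci in both comparisons.

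*Bmf* (chr2:118528757-118549687, minus strand) encodes BMF, a BH3-only protein that is tethered to myosin V motors through dynein light chain and is released when cells lose anchorage. Its level was 13.6 and 12.5 FPKM in HG, 1.37 and 1.65 FPKM with rFGF1WT and 1.41 and 1.63 FPKM with rFGF1ΔHBS. Every FGF1 library was far below both HG libraries, and the libraries of the 2 proteins interleaved. The mean was 13.0 ± 0.779 FPKM in HG (SD, n = 2), 8.60-fold that with rFGF1WT (1.51 ± 0.198) and 8.57-fold that with rFGF1ΔHBS (1.52 ± 0.152). On the log2(FPKM + 1) scale the difference from HG was -2.48 ± 0.10 (SE) with either protein. These values are a description without a test, as they were known when the family was picked. If all fragments came from its longest listed transcript (4642 bases), *Bmf* rested on an estimated 1296 to 1447 fragments in the HG libraries and 142 to 174 in the FGF1 libraries, so that the low values were not at the limit of the depth.

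*Bcl2l11* (chr2:128126038-128162547, plus strand) encodes BIM, which binds all pro-survival members and can activate BAX directly. Its level was 5.49 and 5.05 FPKM in HG, 2.76 and 3.06 FPKM with rFGF1WT and 3.04 and 2.57 FPKM with rFGF1ΔHBS. Both HG libraries were above all 4 FGF1 libraries, and those of the 2 proteins interleaved. *Bcl2l11* fell by 0.68 on the log2(FPKM + 1) scale with rFGF1WT (SE 0.10, limma adjusted p = 0.0383) and by 0.72 with rFGF1ΔHBS (SE 0.10, limma adjusted p = 0.0336). In FPKM, the HG mean was 1.81-fold the rFGF1WT mean and 1.88-fold the rFGF1ΔHBS mean. The call was lost when any 1 of the 6 libraries was left out, with adjusted p-values of 0.0665 to 0.147 with rFGF1WT and 0.0762 to 0.134 with rFGF1ΔHBS, while the difference kept its sign.

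*Bad* (chr19:6941861-6951899, plus strand) encodes a BH3-only protein that AKT and other kinases phosphorylate, after which 14-3-3 proteins hold it in the cytosol. Its level was 13.8 and 13.5 FPKM in HG, 9.15 and 9.71 FPKM with rFGF1WT and 11.5 and 12.0 FPKM with rFGF1ΔHBS. The 3 groups did not overlap, with rFGF1ΔHBS between the other two. *Bad* fell by 0.49 on the log2(FPKM + 1) scale with rFGF1WT (SE 0.06, limma adjusted p = 0.0253), whereas the difference with rFGF1ΔHBS was -0.20 (SE 0.06, limma adjusted p = 0.136). Without any 1 of the libraries, the adjusted p with rFGF1WT was between 0.0636 and 0.112.

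*Bbc3* (chr7:16308393-16318205, plus strand) encodes PUMA, a target of p53 and of FOXO3 that binds every pro-survival member. Its level was 5.51 and 7.10 FPKM in HG, 7.43 and 6.77 FPKM with rFGF1WT and 7.73 and 8.11 FPKM with rFGF1ΔHBS. The HG and rFGF1WT libraries overlapped, and those with rFGF1ΔHBS were above both. The difference from HG was 0.16 with rFGF1WT (95% confidence interval -0.19 to 0.50, limma adjusted p = 0.505) and 0.30 with rFGF1ΔHBS (-0.05 to 0.64, adjusted p = 0.253) on the log2(FPKM + 1) scale. The HG library that was used moved these values, to -0.0022 with rFGF1WT and 0.14 with rFGF1ΔHBS without HG replicate 1, and to 0.31 and 0.45 without HG replicate 2.

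*Pmaip1* encodes NOXA, which binds chiefly MCL1. It was the lowest member in HG, at 1.70 and 1.80 FPKM, and was listed at 2.07 and 1.05 FPKM with rFGF1WT and 1.44 and 1.83 FPKM with rFGF1ΔHBS. All 3 groups overlapped. Its difference from HG was -0.13 with rFGF1WT (95% confidence interval -0.73 to 0.47, limma adjusted p = 0.756) and -0.07 with rFGF1ΔHBS (-0.67 to 0.53, adjusted p = 0.89).

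Added up, the 5 BH3-only genes came to 40.1 and 39.9 FPKM in the HG libraries, 22.8 and 22.2 FPKM with rFGF1WT and 25.1 and 26.2 FPKM with rFGF1ΔHBS. *Bmf* made up 33.9% and 31.2% of this sum in HG and between 5.63% and 7.43% in the 4 FGF1 libraries. *Bmf*, known to be low when the family was picked, is part of this sum, which is therefore a description. *Bcl2l11* and *Bad* were also below both HG libraries in the 4 FGF1 libraries. With *Bid*, *Bik* and *Hrk* added, the group means were 55.2 FPKM in HG, 46.4 FPKM with rFGF1WT and 46.2 FPKM with rFGF1ΔHBS, a smaller gap, since *Bid*, which links caspase-8 to mitochondria, was listed at 14.3 and 16.1 FPKM in HG and at 17.7 to 24.7 FPKM in the FGF1 libraries (limma adjusted p = 0.101 with rFGF1WT and 0.205 with rFGF1ΔHBS).

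*Bcl2l1* (chr2:152780668-152831728, minus strand) encodes BCL-xL, which keeps BAX and BAK1 from forming pores. Its level was 11.7 and 7.88 FPKM in HG, 16.9 and 16.3 FPKM with rFGF1WT and 16.6 and 17.7 FPKM with rFGF1ΔHBS. All 4 FGF1 libraries were above both HG libraries, which were themselves 1.48-fold apart. The difference was 0.73 (SE 0.18, limma adjusted p = 0.105) with rFGF1WT and 0.78 (SE 0.18, adjusted p = 0.0918) with rFGF1ΔHBS on the log2(FPKM + 1) scale. Without HG replicate 1, the higher of the 2, the difference was 0.99 with rFGF1WT (adjusted p = 0.0491) and 1.03 with rFGF1ΔHBS (adjusted p = 0.0485), with the lone HG library assumed to vary like the other groups. Without HG replicate 2 it was 0.47 (adjusted p = 0.101) and 0.52 (adjusted p = 0.089). After a pathway analysis of its RNA-seq results, the study turned to real-time PCR. There it reported higher *Bcl2l1* mRNA with either protein.

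*Mcl1* (chr3:95658788-95663176, plus strand) encodes a pro-survival protein with a very short half-life and had the highest group mean of the 10 members in every group. Its level was 16.1 and 72.5 FPKM in HG, 87.0 and 81.0 FPKM with rFGF1WT and 84.1 and 80.8 FPKM with rFGF1ΔHBS. The 4 FGF1 libraries lay close together, whereas the 2 HG libraries were 4.50-fold apart. The difference from HG was 1.26 (95% confidence interval -0.66 to 3.18, limma adjusted p = 0.36) with rFGF1WT and 1.24 (-0.68 to 3.16, adjusted p = 0.371) with rFGF1ΔHBS. One library decided its size, since the difference was 0.21 and 0.18 without HG replicate 1 and 2.31 and 2.29 without HG replicate 2, the latter with adjusted p-values of 0.0116 and 0.0111. In each library, 31 to 51 tested loci were more than 4-fold below the lowest of the other 5 libraries. There were 41 such loci in HG replicate 1, and their part in the value of *Mcl1* was not tested.

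*Bcl2* (chr1:106538178-106714274, minus strand) encodes the founding member of the family. Its level was 2.87 and 2.58 FPKM in HG, 3.24 and 3.23 FPKM with rFGF1WT and 3.62 and 3.47 FPKM with rFGF1ΔHBS. All FGF1 libraries were above both HG libraries, by a margin that did not pass the test. The difference was 0.18 (95% confidence interval -0.02 to 0.38, limma adjusted p = 0.228) with rFGF1WT and 0.29 (0.09 to 0.49, adjusted p = 0.109) with rFGF1ΔHBS.

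Added up, the 3 pro-survival genes came to 30.6 and 82.9 FPKM in HG, and to between 100.5 and 107.2 FPKM in the 4 FGF1 libraries. *Mcl1* dominated this sum, and without it the values were 14.5 and 10.5 FPKM in HG and between 19.5 and 21.2 FPKM with either protein. The ratio of the pro-survival to the BH3-only sum was 0.764 and 2.08 in HG and between 3.90 and 4.70 in the FGF1 libraries. Without *Mcl1* it was 0.363 and 0.262 in HG, 0.884 and 0.877 with rFGF1WT and 0.807 and 0.809 with rFGF1ΔHBS, again with no overlap between HG and the FGF1 groups. With all measured family genes of each role it was 0.728 and 1.68 in HG and between 2.29 and 2.70 in the FGF1 libraries. The locus of *Bcl2l2*, a pro-survival gene added there, is merged with *Gm20521* and *Pabpn1*, so its value may hold reads of these genes. *Bmf*, known to be low when the family was picked, is part of the lower term of each ratio, so that the ratios are a description. These are sums of RNA levels, and protein was not measured in these libraries.

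**Figure D2:**
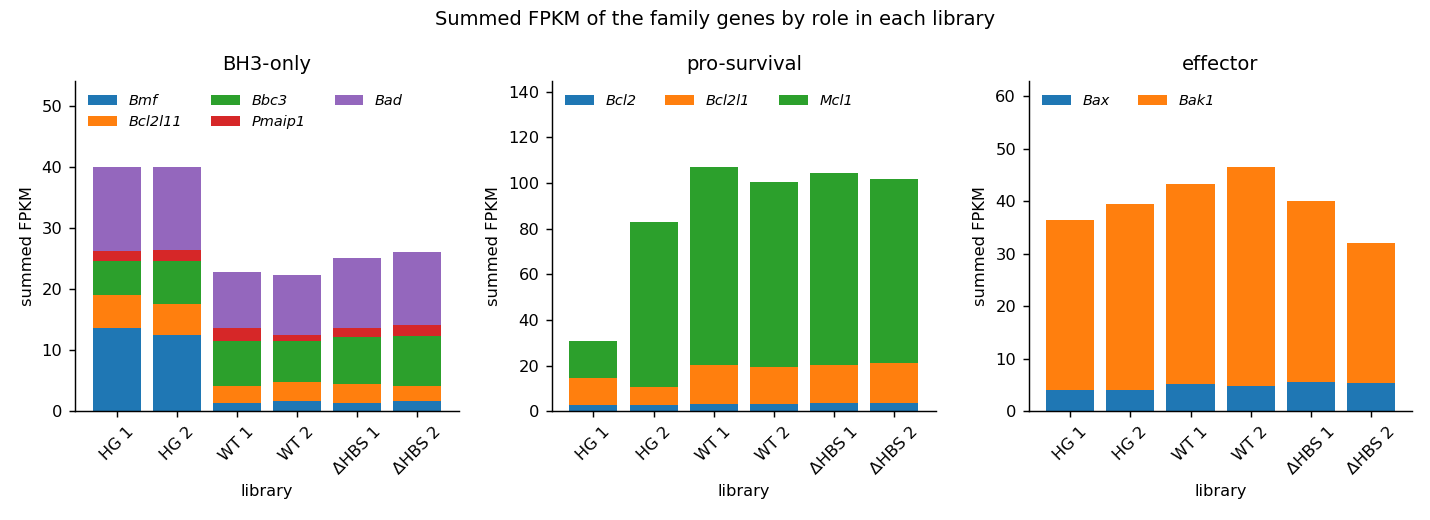
Summed FPKM of the BH3-only, pro-survival and effector genes in each of the 6 libraries (stacked bars from 0, 1 colour for each gene). The BH3-only sum is 40.1 and 39.9 FPKM in HG and at most 26.2 FPKM in the FGF1 libraries, and the pro-survival sum of HG replicate 1, at 30.6 FPKM, stands apart through *Mcl1*.

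*Bax* (chr7:45461697-45466898, minus strand) encodes the effector that moves from the cytosol to mitochondria. In the table its locus is merged with *Gm45808* and *Dhdh*, so its value may hold reads of these genes. The level was 3.99 FPKM in both HG libraries, 5.17 and 4.89 FPKM with rFGF1WT and 5.49 and 5.44 FPKM with rFGF1ΔHBS, and the groups did not overlap. The merged locus rose by 0.37 (SE 0.06, limma adjusted p = 0.0464) with rFGF1ΔHBS, and the difference with rFGF1WT was 0.27 (SE 0.06, adjusted p = 0.0848). Without any 1 of the libraries, the adjusted p with rFGF1ΔHBS was between 0.0875 and 0.161.

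*Bak1* (chr17:27019810-27029009, minus strand) encodes the effector that resides in the mitochondrial membrane. Its level was 32.5 and 35.4 FPKM in HG, 38.1 and 41.7 FPKM with rFGF1WT and 34.4 and 26.5 FPKM with rFGF1ΔHBS. The rFGF1WT libraries were above HG, and those with rFGF1ΔHBS overlapped HG. The difference from HG was 0.23 (95% confidence interval -0.16 to 0.61, limma adjusted p = 0.409) with rFGF1WT and -0.16 (-0.55 to 0.22, adjusted p = 0.542) with rFGF1ΔHBS. The summed FPKM of *Bax* and *Bak1*, most of it from *Bak1*, was 36.5 and 39.4 in HG, 43.2 and 46.6 with rFGF1WT and 39.9 and 31.9 with rFGF1ΔHBS.

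**Figure D3:**
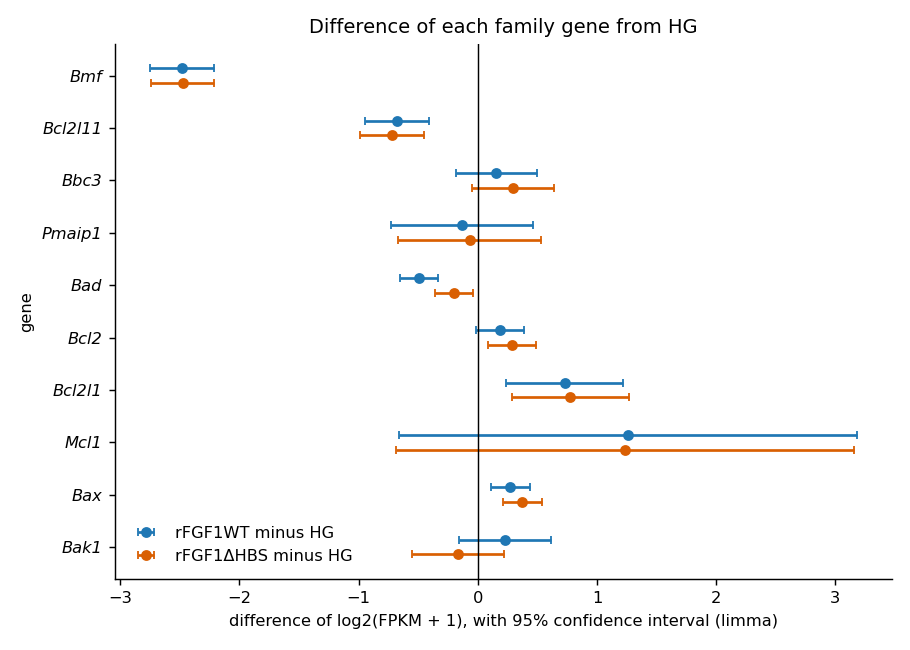
Difference of log2(FPKM + 1) from HG (horizontal axis) for each family gene with rFGF1WT and rFGF1ΔHBS, with 95% confidence intervals from limma as bars. *Bmf* lies at -2.48 with both proteins, apart from the other 9 genes, and the intervals of *Mcl1* run from -0.66 to 3.18 and from -0.68 to 3.16.

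The third comparison asked whether the variant, which differs from the wild type in its heparan sulfate-binding site, acted differently on the family at the same dose and time. In this comparison 0 of 10 members passed the limma test at an adjusted p below 0.05, where 0.294% of tested loci were higher and 0.256% lower with rFGF1ΔHBS than with rFGF1WT, and 0.350% passed with at least a 2-fold difference. At an unadjusted p below 0.05 there were 2 members, *Bad* and *Bak1*, where 4.87% of tested loci were counted. *Bad* was higher with rFGF1ΔHBS by 0.29 (95% confidence interval 0.13 to 0.45, limma adjusted p = 0.474), and *Bak1* was lower by 0.39 (-0.77 to -0.0013 for the difference, limma adjusted p = 0.905). The difference of *Bak1* was -0.57 without rFGF1ΔHBS replicate 1 and -0.20 without rFGF1ΔHBS replicate 2. The interval of the difference between the proteins was -0.26 to 0.27 for *Bmf* and -0.31 to 0.23 for *Bcl2l11*. Differences within these limits were not excluded. The limits are unadjusted, so a larger difference could also have failed the test, as that of *Bad* did with its interval off 0. The interval was -0.06 to 0.26 for *Bax*, -0.10 to 0.30 for *Bcl2* and -0.20 to 0.48 for *Bbc3*. For *Bcl2l1* it was -0.45 to 0.54, for *Pmaip1* -0.53 to 0.66 and for *Mcl1* -1.95 to 1.89. The fit takes 1 estimate of the spread from all 6 libraries of a gene, so that the interval of *Mcl1* includes the gap within the HG pair.

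**Figure D4:**
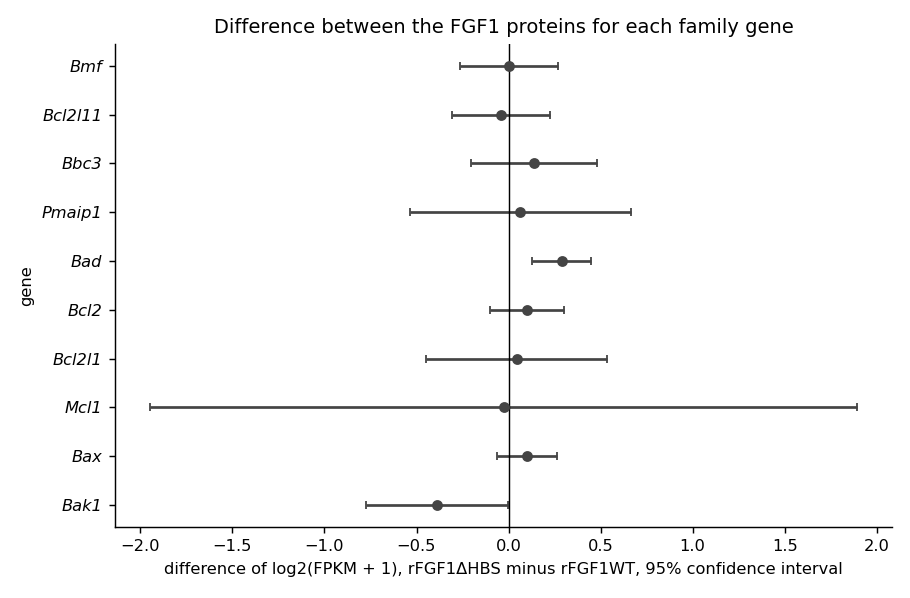
Difference of log2(FPKM + 1) between rFGF1ΔHBS and rFGF1WT (horizontal axis, rFGF1ΔHBS minus rFGF1WT) for each family gene, with 95% confidence intervals from limma. The intervals of *Bad* (0.13 to 0.45) and *Bak1* (-0.77 to -0.0013) lie to 1 side of 0 before adjustment, and 0 of 10 genes passed after it.

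Beside the family, 8 lists of the apoptosis pathway were followed in the same fit, in all 81 genes, of which 77 were in the table and 70 were tested. With rFGF1WT, 2 of these 70 rose and 2 fell, and with rFGF1ΔHBS 1 rose and 1 fell. These were 5.71% and 2.86% of the 70, where 6.19% and 6.26% of all tested loci passed in either direction, so that the share in the lists was no higher than the background. In the transcription factor list 9 genes were tested. *Atf4*, the stress-responsive factor that raises several BH3-only genes, rose from 77.1 and 85.4 FPKM in HG to 120 and 124 FPKM with rFGF1WT (difference 0.58, limma adjusted p = 0.0308) and to 128 and 117 FPKM with rFGF1ΔHBS (0.59, adjusted p = 0.0308). *Myc*, which drives growth and primes cells for apoptosis, rose with rFGF1WT (0.99, limma adjusted p = 0.0457) and was at 0.90 with rFGF1ΔHBS (adjusted p = 0.0531). *Foxo4* fell with rFGF1ΔHBS (-0.47, limma adjusted p = 0.0499), and its difference with rFGF1WT was -0.39 (adjusted p = 0.0731). *Foxo3*, a known regulator of *Bcl2l11* and *Bbc3*, was listed at 19.8 and 19.9 FPKM in HG. Its level was 16.03 and 15.7 FPKM with rFGF1WT and 12.6 and 7.17 FPKM with rFGF1ΔHBS. No group overlapped HG and neither difference passed (limma adjusted p = 0.511 and 0.106). By real-time PCR, the study reported lower *Foxo3* mRNA with either protein.

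Among the other family genes, *Bnip3*, a mitochondrial protein that serves mainly in mitophagy, fell with rFGF1WT from 10.5 FPKM in both HG libraries to 7.68 and 7.15 FPKM (limma adjusted p = 0.0496), and was at 7.90 and 7.08 FPKM with rFGF1ΔHBS (adjusted p = 0.0514). It was the 1 gene that passed of 8 tested in that list, where 6.19% of all tested loci passed with rFGF1WT. Of the proteins that hold BH3-only proteins away from mitochondria, 1 of 8 passed with rFGF1WT, beside the same 6.19%. *Ywhaq*, a 14-3-3 protein of the kind that binds phosphorylated BAD, fell with rFGF1WT from 84.1 FPKM in both HG libraries to 65.5 and 65.8 FPKM (limma adjusted p = 0.0308), against 79.2 and 83.9 FPKM with rFGF1ΔHBS (adjusted p = 0.603). The difference between the proteins itself gave an adjusted p of 0.212 (limma). The dynein light chain *Dynll2*, the known partner of BMF, was at 44.8 and 30.7 FPKM in HG and at 27.4 to 37.4 FPKM in the FGF1 libraries (limma adjusted p = 0.758 and 0.64).

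In the remaining 5 lists 0 of 45 genes passed the limma test in either comparison with HG. An unadjusted p below 0.05 was seen for 5 (11.1%) with rFGF1WT and 10 (22.2%) with rFGF1ΔHBS. Over all tested loci these shares were higher, at 24.8% and 24.9%. They were 13 tested caspase and apoptosome genes, 5 inhibitors of apoptosis, 8 genes of the death receptor pathway, 5 genes of MCL1 and BIM turnover and 14 kinases. The endoplasmic reticulum caspase *Casp12* came nearest among the caspases, at 10.4 and 10.1 FPKM in HG, 8.11 and 7.71 FPKM with rFGF1WT and 8.57 and 8.001 FPKM with rFGF1ΔHBS (limma adjusted p = 0.0649 and 0.0899). *Tnfrsf21*, a death receptor, was at 3.16 and 4.05 FPKM in HG and at 6.02 to 8.88 FPKM in the FGF1 libraries (limma adjusted p = 0.0566 and 0.0846). Over all 8 lists the medians ran from -0.01 to 0.13 with rFGF1WT and from -0.06 to 0.37 with rFGF1ΔHBS. Beside these stood -0.04 over all tested loci.

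**Figure D5:**
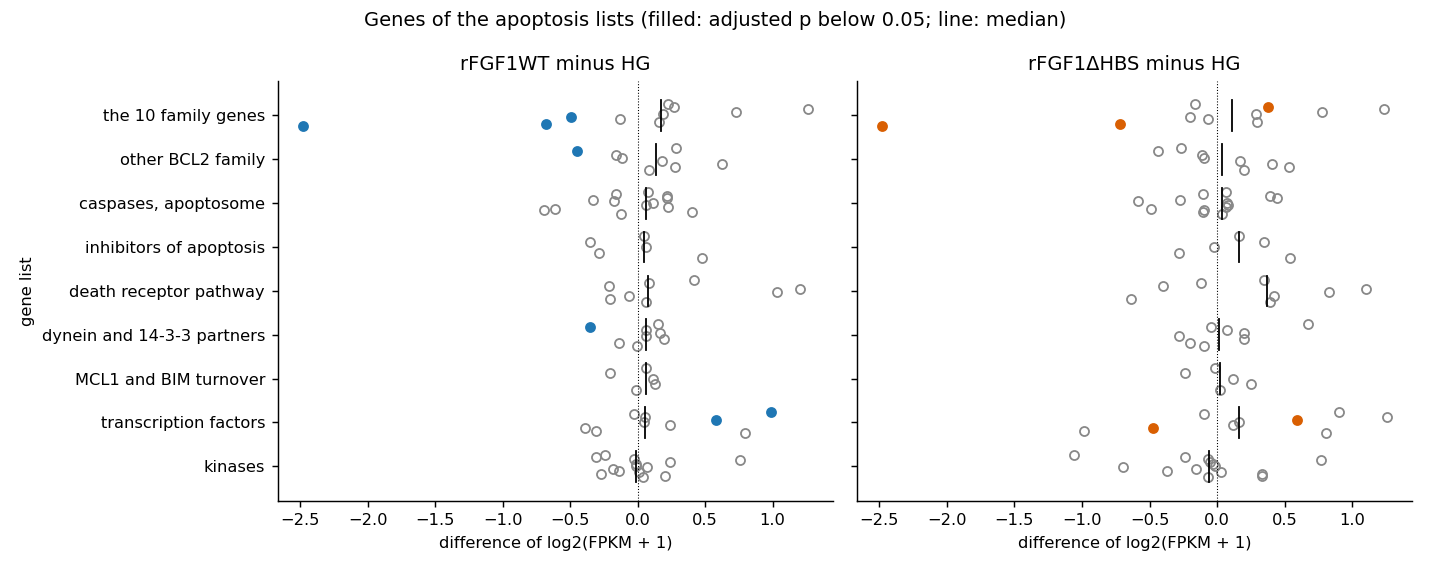
Difference of log2(FPKM + 1) from HG (horizontal axes) for the 10 family genes and the tested genes of 8 apoptosis lists, with rFGF1WT on the left and rFGF1ΔHBS on the right. Filled points have an adjusted p below 0.05 and vertical lines are medians, and outside the family 4 of 70 genes are filled on the left and 2 of 70 on the right.

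*Bmf* and *Bcl2l11* were low in the same 4 libraries, which raised the question of what their promoters share. For 9 members, 17 RefSeq windows on GRCm38.p6, each from 250 bases before to 50 bases after an annotated start, were searched on both strands for the FOXO motif GTAAACA and the AP-1 motif TGANTCA. The FOXO motif was found in 2 of the 17 windows, 1 of *Bcl2l11* and 1 of *Bbc3*, and in 3.65% of all 32851 windows. The AP-1 motif was found in 0 of the 17 and in 7.81% of all windows. The outermost of the 3 *Bmf* windows and the windows with a match are shown, with the FOXO motif in capitals.
*Bmf* (chr2:118549637-118549936, minus strand): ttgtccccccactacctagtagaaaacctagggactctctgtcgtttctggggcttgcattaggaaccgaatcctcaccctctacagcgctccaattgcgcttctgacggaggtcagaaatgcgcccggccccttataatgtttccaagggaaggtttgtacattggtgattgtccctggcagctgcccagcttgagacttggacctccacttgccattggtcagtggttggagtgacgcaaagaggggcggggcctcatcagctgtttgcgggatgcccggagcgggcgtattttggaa
*Bcl2l11* (chr2:128125788-128126087, plus strand): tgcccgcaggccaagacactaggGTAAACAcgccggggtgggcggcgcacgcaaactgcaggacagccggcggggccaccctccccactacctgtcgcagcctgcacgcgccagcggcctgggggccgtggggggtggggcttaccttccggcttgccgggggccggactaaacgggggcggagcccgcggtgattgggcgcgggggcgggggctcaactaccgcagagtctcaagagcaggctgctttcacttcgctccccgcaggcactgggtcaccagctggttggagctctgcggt
*Bbc3* (chr7:16310011-16310310, plus strand): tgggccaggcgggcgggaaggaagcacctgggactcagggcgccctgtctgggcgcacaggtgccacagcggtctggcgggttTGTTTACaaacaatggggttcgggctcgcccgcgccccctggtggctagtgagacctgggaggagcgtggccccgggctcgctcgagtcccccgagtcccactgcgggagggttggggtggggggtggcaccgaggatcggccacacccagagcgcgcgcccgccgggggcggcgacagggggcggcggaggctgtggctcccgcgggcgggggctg
In *Bcl2l11* the match began 227 bases before the start and was on the strand of the gene. In *Bbc3*, whose level did not pass the test with either protein, it began 167 bases before the start on the other strand, so its reverse complement is what the capitals show. *Bmf* held neither motif in any of its 3 windows. These are matches of letters in short windows and say nothing of binding.

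The genes whose pattern over the 6 libraries was most like that of *Bmf* were *Bmpr1a*, *Apbb2*, *Dzip1*, *Sox4* and *Rasl11a*, with Pearson's r of log2(FPKM + 1) between 0.998 and 0.9996. *Bmpr1a*, a receptor for bone morphogenetic proteins, was at 20.2 and 19.1 FPKM in HG and at 8.04 to 8.72 FPKM in the FGF1 libraries. *Sox4*, a transcription factor, was at 56.7 and 57.5 FPKM in HG and was listed at 0 in all 4 FGF1 libraries, and a listed 0 may be a failed estimate, as 290 of the tested loci had at least 1. For *Bcl2l11* they were *Cdc5l*, *Dnajc18*, *Asap3*, *Kdm5b* and *Herc3*, with r between 0.996 and 0.997, and *Bcl2l11* itself had an r of 0.978 with *Bmf*. Such values are easily reached with 6 libraries in 3 groups, since 523 tested loci had an r above 0.95 with *Bmf* and 371 with *Bcl2l11*.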

How the data were processed

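Poly(A) RNA of 6 MPC libraries was sequenced as paired ends. The authors deposited 1 table of FPKM values for 24469 loci, 1 column for each library, and their notes name HISAT2 (2.0), StringTie (1.3.0), Bowtie (0.12.2) and the build mm8, without giving their roles or order. Among the members, *Bcl2* and *Pmaip1* had Ensembl locus identifiers and the others had identifiers that start with MSTRG. All positions given here were taken from GENCODE M21 on GRCm38, and a locus of the table need not span the same bases. Read counts were not used here, so that depth was only estimated from the steps of low values. No column of the table was left out of the 6.

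Groups came from the sample titles. FPKM was transformed to log2(FPKM + 1), the 10562 loci averaging 1 FPKM or more were kept, and limma (3.58.1, R 4.3.3; empirical Bayes with a trend) was fitted to all 6 libraries, with 3 contrasts and Benjamini-Hochberg adjustment over all tested loci at 0.05. A fold change on this scale understates the change of low genes. The procedure was tested on simulated data. With 2 libraries against 2 an exact permutation test cannot go below p = 0.333 and was not used. Tables and figures were made with Python 3.11.15.

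The members and the gene lists were chosen with earlier results of these data known. All 10 members were named. From each list, genes with an adjusted p below 0.05 in a comparison with HG (all if 5 or fewer) and at most 2 others were named, and for members that passed in both comparisons the 5 loci with the highest Pearson r. *Bub1b*, *Srp14*, *Eif2ak4*, *Gm14005*, *Acoxl*, *Gm14009*, *Gm14012* and the genes of the KEGG annotation were named after their values were seen. Alternatives were another pseudocount (0.1), other filters, scalings and fits, a replicate block and leaving out each library. Protein sequences were not used here.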

Additional observations from a re-analysis of the deposited data

How the results depend on the processing

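The difference of *Bmf* from HG, a description since it was known when the family was picked, was -2.56 to -2.40 with rFGF1WT and -2.54 to -2.41 with rFGF1ΔHBS when each library was left out. The count of members that passed with rFGF1WT (3) was 2 or 3 with other pseudocounts, filters, scalings or robust fitting, but 1 when only the 4 libraries compared entered the fit and 1 with a replicate block, and 1 to 2 when each library was left out. The count with rFGF1ΔHBS (3) was 1 without a filter on low FPKM, 1 with a filter at a mean FPKM of 5 (which leaves fewer members to test), 1 with only the 4 libraries, 1 with the replicate block, 2 with robust fitting (*Bax* at an adjusted p of 0.0501), and 1 to 2 when each library was left out. Deviations from the group mean correlated at -0.02, 0.10 and -0.05 between same-numbered libraries. With 2 libraries a group, this cannot settle whether the replicate numbers pair the libraries. Between the proteins the count was 0 under every alternative.

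The differences that turned sign passed the test under 0 of the alternatives run, 14 for *Bbc3*, *Bak1*, *Bmf* and *Mcl1* between the proteins and 13 for *Pmaip1* and *Bcl2l11*, which a filter at a mean FPKM of 5 removes. They were, over the libraries left out in turn, *Bbc3* (-0.0022 to 0.31) and *Pmaip1* (-0.42 to 0.16) with rFGF1WT, *Pmaip1* (-0.17 to 0.039) and *Bak1* (-0.35 to 0.021) with rFGF1ΔHBS, and, between the proteins, *Bmf* (-0.076 to 0.085), *Bcl2l11* (-0.13 to 0.048), *Mcl1* (-0.077 to 0.024) and *Pmaip1* (-0.23 to 0.35). For *Bmf* between the proteins the value was also -0.0023 with median-ratio scaling and -0.0061 with quantile normalization. With all measured family genes of each role, the mean sums of HG, rFGF1WT and rFGF1ΔHBS were 55.2, 46.4 and 46.2 FPKM for BH3-only and 43.2, 51.5 and 43.8 FPKM for effector genes, and the pro-survival means were 114.6 and 114.8 FPKM with the 2 proteins. These pro-survival means include the merged locus of *Bcl2l2*. Without *Mcl1*, a choice made after the data were seen, the pro-survival means were 12.5, 19.8 and 20.7 FPKM, and with median-ratio scaling the BH3-only mean of HG was 38.7 FPKM. With 2 libraries a group, differences as small as those of *Bcl2* or *Bbc3* could not be settled, and the cause of lost calls was not tested.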

Other observations

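The table's own KEGG annotation of apoptosis covered 128 loci, 9 of them members (*Bmf* is not among them), and 105 were tested. With each protein, 7 of these were higher and 3 lower than in HG at an adjusted p below 0.05 (limma), or 9.52%. Of all tested loci, 6.19% passed with rFGF1WT and 6.26% with rFGF1ΔHBS. The passing loci included the members *Bad* and *Bcl2l11* with rFGF1WT, and *Bcl2l11* and *Bax* with rFGF1ΔHBS. Members were picked with results known, so nothing is read from this share. With either or both proteins *Atf4*, *Itpr3*, *Actg1* and *Actb* also rose, and *Sept4* and *Pik3cd* fell. *Pidd1*, which activates caspase-2, rose by 0.40 with rFGF1WT (limma adjusted p = 0.0369) and by 0.54 with rFGF1ΔHBS (adjusted p = 0.0214). *Gadd45a*, a DNA damage response gene, rose by 0.49 (limma adjusted p = 0.0461) and 0.57 (adjusted p = 0.0345), and *Ptpn13*, a phosphatase that binds FAS, by 0.56 (adjusted p = 0.013) and 0.65 (adjusted p = 0.0115).

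Around the 2 members that were lower with both proteins, genes within 150 kb were looked up after the values were seen. Next to *Bmf*, *Bub1b*, a mitotic checkpoint kinase 48.5 kb away, fell from 35.7 and 34.0 FPKM in HG to between 25.3 and 26.6 FPKM in the FGF1 libraries (differences -0.44 and -0.39, limma adjusted p = 0.0232 and 0.0292). *Srp14* and *Eif2ak4* on the other side did not pass (limma adjusted p = 0.551 and 0.468 for *Srp14*, 0.777 and 0.349 for *Eif2ak4*). Near *Bcl2l11*, the long noncoding RNA *Gm14005*, 15.8 kb away, was at 0.105 and 0.119 FPKM in HG and at 0.395 to 0.492 FPKM in the FGF1 libraries. It was below the filter on low FPKM, with an estimated 4 to 5 fragments in HG and 16 to 20 in the FGF1 libraries, and in the fit without that filter its adjusted p was 0.0679 with rFGF1WT and 0.0664 with rFGF1ΔHBS (limma). *Acoxl*, the nearest neighbour at 2.2 kb, was at or below 0.0781 FPKM in every library, with adjusted p-values of 0.609 and 0.129 in the fit without the filter (limma), and *Gm14009* and *Gm14012* were at or below 0.0349 FPKM.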
